A study of Mus musculus with 4 samples.

Results

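Open chromatin around 10 genes of TGF-beta signalling was examined in sorted palatal mesenchyme of mouse embryos: the ligand genes Tgfb1, Tgfb2, Tgfb3 and Inhba, the receptor genes Tgfbr1, Tgfbr2 and Tgfbr3, and the intracellular mediator genes Smad2, Smad3 and Smad7. Peaks of the 4 deposited ATAC-seq lists were joined into regions where they shared at least 1 bp, and a region was given to a gene when that gene was the nearest protein-coding gene to its midpoint, within 100 kb in mm10. This gave the 10 genes 44 of 39843 regions, of which 19 held a peak in all 4 libraries, out of 18904 such regions genome-wide. ATAC-seq marks DNA that a transposase can reach, and a listed peak is a stretch where its cuts pile up. Nearness does not show which gene a region acts on.

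The study compared a control genotype, Shox2Cre/+;Nkx2.5F/F;R26RmTmG, with a mutant genotype, Shox2Cre/-;Nkx2.5F/F;R26RmTmG, with 2 libraries each, and its title asks about Shox2, a homeobox gene, and accessibility in the cells that have expressed it. Both genotypes were taken at stage E14.5 of embryonic development, carried Cre at the Shox2 locus, had both copies of Nkx2-5 floxed, so that Cre can remove the gene in the same cells, and carried the mTmG reporter, which makes cells green after Cre has acted. The controls therefore had 1 Shox2 allele left and were not wild type at either gene. Green cells were sorted, and per the labels 50000 were pooled for each group. The labels do not say whether the libraries of a genotype came from separate pools of embryos, so the spread between them may be technical.

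TGF-beta ligands bind the receptor encoded by Tgfbr2, which recruits and phosphorylates the type I receptor encoded by Tgfbr1; that kinase activates SMAD2 and SMAD3, which move to the nucleus with SMAD4 and bind DNA. Betaglycan, the product of Tgfbr3, presents ligand to the signalling receptors, and SMAD7 is an inhibitor induced by the pathway that acts at the type I receptor. In the palate, Tgfb3 is best known for the medial edge epithelium, where its loss leaves the shelves unfused, and loss of Tgfbr2 in neural crest cells also gives a cleft. Inhba encodes the activin A subunit, whose receptors use the same SMAD2 and SMAD3.

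The start sites of 5 of the genes are shown because they carry the contrasts described next. They are RefSeq windows of GRCm38.p6, from 250 bases before to 50 after the start, 5′ to 3′ on the strand of the gene; 6 of the 10 genes matched by symbol. Tgfbr1 (chr4:47352972-47353271, + strand) had the highest-ranked region of the set, Tgfbr2 (chr9:116175314-116175613, − strand) the one region ranked lower in both mutants, Tgfb2 (chr1:186705940-186706239, − strand) and Inhba (chr13:16011601-16011900, + strand) the lowest-ranked starts held by all libraries, and Tgfb1 (chr7:25686752-25687051, + strand) a region that 1 library lacked. Capitals mark every match, on either strand, to the motifs searched.
Tgfbr1: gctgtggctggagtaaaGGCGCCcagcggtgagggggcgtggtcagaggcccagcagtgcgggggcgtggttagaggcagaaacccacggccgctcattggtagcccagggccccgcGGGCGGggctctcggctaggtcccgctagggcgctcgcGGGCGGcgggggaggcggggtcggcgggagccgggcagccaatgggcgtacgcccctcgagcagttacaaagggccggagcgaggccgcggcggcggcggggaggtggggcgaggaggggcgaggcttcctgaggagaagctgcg
Tgfbr2: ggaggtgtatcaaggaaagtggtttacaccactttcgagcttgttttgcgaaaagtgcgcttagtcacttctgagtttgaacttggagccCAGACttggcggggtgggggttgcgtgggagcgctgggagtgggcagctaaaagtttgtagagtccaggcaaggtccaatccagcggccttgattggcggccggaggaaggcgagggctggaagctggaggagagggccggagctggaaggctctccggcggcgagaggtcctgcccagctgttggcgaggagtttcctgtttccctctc
Tgfb2: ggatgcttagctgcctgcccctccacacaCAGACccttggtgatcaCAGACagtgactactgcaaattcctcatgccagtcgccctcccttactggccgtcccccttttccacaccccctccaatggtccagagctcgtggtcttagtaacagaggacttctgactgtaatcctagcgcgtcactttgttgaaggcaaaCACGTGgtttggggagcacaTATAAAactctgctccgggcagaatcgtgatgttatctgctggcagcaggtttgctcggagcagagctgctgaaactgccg
Inhba: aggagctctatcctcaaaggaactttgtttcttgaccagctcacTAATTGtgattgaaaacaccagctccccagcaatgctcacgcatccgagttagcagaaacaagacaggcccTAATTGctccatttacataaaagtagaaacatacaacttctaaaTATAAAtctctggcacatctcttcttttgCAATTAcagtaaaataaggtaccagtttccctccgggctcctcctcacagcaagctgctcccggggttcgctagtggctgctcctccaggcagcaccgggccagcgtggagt
Tgfb1: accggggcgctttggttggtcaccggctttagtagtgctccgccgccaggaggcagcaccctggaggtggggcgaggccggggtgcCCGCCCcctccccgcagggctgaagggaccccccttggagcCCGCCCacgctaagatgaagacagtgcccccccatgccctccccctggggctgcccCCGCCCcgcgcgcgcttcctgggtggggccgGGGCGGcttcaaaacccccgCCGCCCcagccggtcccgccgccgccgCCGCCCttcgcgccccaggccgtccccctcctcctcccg

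Both strands of 21045 promoter windows of protein-coding genes were searched for short sequences that named factors are known to bind. The GC box, bound by Sp1 and related factors, was searched as GGGCGG. The Tgfb1 window held 6 of them, the Tgfbr1 window 2 and the unprinted Smad3 window (chr9:63757945-63758244, − strand) 2, while 46.7% of all windows held at least 1. The Smad box, the short element that Smads contact, was searched as CAGAC and is in 48.3% of windows. It was present 2 times in the Tgfb2 window, starting 221 and 204 bases before the start, and 1 time in the Tgfbr2 window, 160 bases before it. A GC-rich Smad element, searched as GGCGCC, began 233 bases before the Tgfbr1 start, a match that 15.5% of windows share. A homeodomain core, searched as TAATTG, was in 6.85% of windows, and the Inhba window held it 3 times, at 206, 135 and 62 bases before the start. The TATA box, searched as TATAAA and found in 12.7% of windows, lay 31 bases before the Tgfb2 start and 91 before the Inhba start. An E box, searched as CACGTG and found in 7.91% of windows, lay 51 bases before the Tgfb2 start. The 6 windows over starts covered by a region had no match to the other motifs. Those were the palindromic Smad element GTCTAGAC (0.228% of windows), the shorter form contained in that palindrome, GTCTAG (8.31%), and the AP-1 site, for which Fos and Jun proteins are known, searched as TGACTCA (4.69%, counting the reverse strand). They also included a second homeodomain core with the letters TAATTA (4.47%), a site known for Nkx2-5 proteins and searched as TTAAGTG (2.14%), and an element bound by Tead factors and searched as CATTCC (13.5%). A match is a stretch of letters and not a measured binding site, and a missing match says only that these letters are not in the window.

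GC content was 77% at Tgfb1, 74.7% at Tgfbr1, 67.7% at Smad3, 59% at Tgfbr2, 54.3% at Tgfb2 and 47.7% at Inhba, and CpG dinucleotides numbered 30, 34, 25, 15, 10 and 7. The median over all 21045 windows was 56.7% GC and 13 CpG. It was 62.3% and 22 in the 10801 windows whose start lay under a region of all 4 libraries (51.3%), and 48.3% and 3 in the 8825 under no region. The GC-richest start of the set, that of Tgfb1, lay under a region that was not held by every library, while the AT-rich Inhba start lay under one that was.

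The lists held 22959 to 31821 peaks on chromosomes 1 to 19 and X, with control 2 the shortest. Peaks rest on counted cuts, but sequencing depth was not available, and their counting error could not be estimated. Each region is described by its list percentile, the percentage of peaks in the same library whose deposited score is no higher; 100 is the strongest peak. The score is the whole part of 10 times the peak's −log10 p in nearly all rows, as the authors deposited it. Of 14 palatal mesenchyme markers, 5 (Osr2, Msx1, Twist1, Twist2 and Meox2) had a region of all 4 libraries within 1 kb of a gene end, and Shox2, Prrx1, Pdgfra and 6 others did not. The same held for 3 of 12 epithelial, 1 of 8 endothelial, 2 of 8 blood, 0 of 8 skeletal muscle, 4 of 8 neuronal and 3 of 7 glial markers, so these genes do not single out the labelled cell type. Peaks at the mesenchyme markers were 10.9 and 11.3 per 10000 in the controls against 8.90 and 10.1 in the mutants. Peaks at skeletal muscle markers were 0.662 and 0.871 against 1.37 and 1.89, and at neuronal markers 4.96 and 4.79 against 4.45 and 4.40. In these 3 lists the genotypes did not overlap, and in the other 4 they did. The skeletal muscle rates rest on very few peaks per library. Separation of so few libraries is also common for single regions: of all regions held by all 4 libraries, 17.6% ranked higher in both mutants and 18% in both controls. How often the peak rates of other gene lists separate was not counted. A genotype difference in cell makeup was not tested with these rates, nor was its part in the results that follow.

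Of the 10 genes, 9 had at least 1 region in all 4 libraries, and 56.3% of 21631 protein-coding genes did. The 19 shared regions were 43.2% of the 44, beside 47.4% of all regions; 11 regions were in 1 library (23.9% of all regions), 9 in 2 and 5 in 3. The shared fraction differed by place. At gene ends 7 of 8 regions were shared (background 84%), inside genes 6 of 23 (background 35.6%) and outside genes 6 of 13 (background 31.9%). Tgfbr3 alone had 15 regions and 5 shared ones. Only 0.374% of protein-coding genes had 15 or more regions, and 0.966% had 5 or more shared ones, though the gene is 183 kb long and regions were not counted per length. Tgfbr2 had 8 regions, Smad7 7 and Inhba 3. Tgfb1, Tgfb2, Tgfbr1, Smad2 and Smad3 had 2 each, and Tgfb3 had 1.

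**Figure D1:**
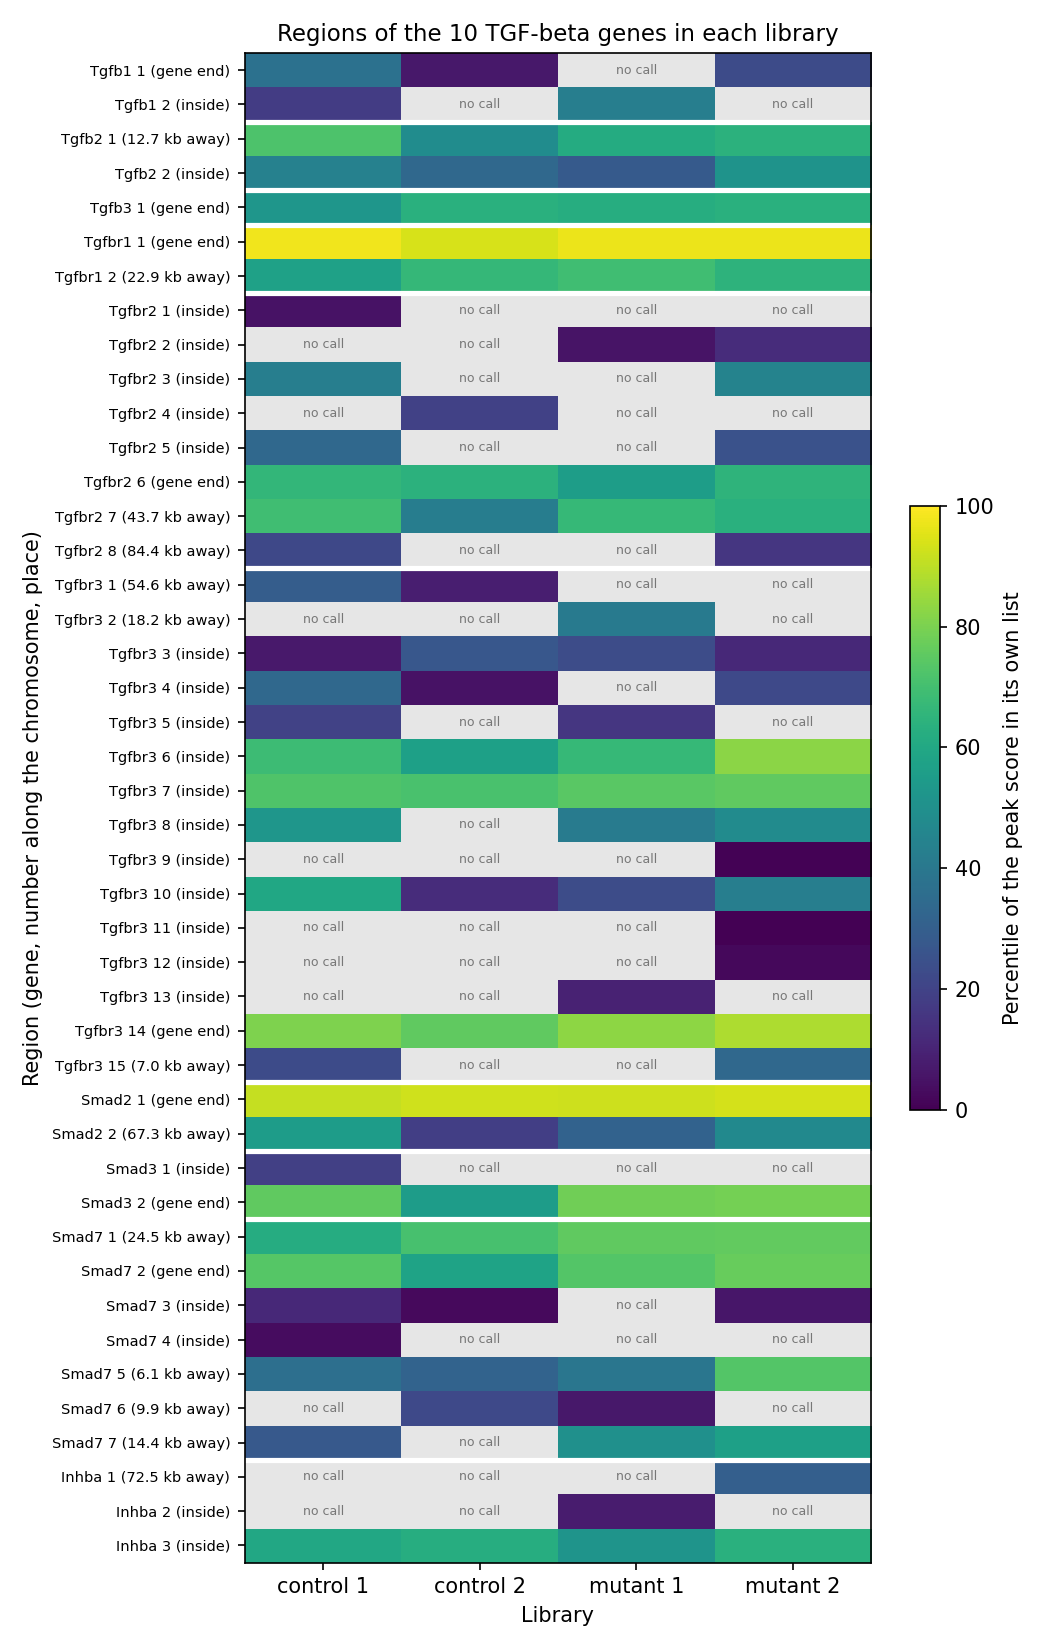
Each row is 1 of the 44 regions, each column a library, and colour is the percentile of the peak score in its own list (0 to 100); grey cells have no listed peak. Gene-end rows are filled in every library except at Tgfb1, and most grey cells lie in rows inside or outside the genes.

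Among the ligands, the highest mean percentile at a start or gene end was 60.4, at Tgfb3. The region over the Tgfb1 start (chromosome 7, 25686611 to 25687989, at the gene end) had list percentiles of 37.3 in control 1, 6.54 in control 2 and 23.0 in mutant 2, and no peak in mutant 1. A region inside the gene (25688973 to 25689667) was held by control 1 at 17.9 and mutant 1 at 42.8. Both rows are patchy and neither follows genotype. Tgfb1 was the one gene of the 10 without a region in all libraries.

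Tgfb2 had 2 regions and both were shared. The one over its start (chromosome 1, 186705131 to 186706460) had percentiles of 44.0 and 33.7 in the controls against 28.5 and 51.2 in the mutants, so the mutants lay on either side of the controls. The stronger one lay 12.7 kb outside the gene, beyond the end away from the start (186609599 to 186610627), with 72.2 and 48.6 in the controls against 61.5 and 64.2 in the mutants. Control 1 and control 2 were the extremes there, with both mutants between them. At Tgfb3 a single region covered the gene end (chromosome 12, 86078608 to 86079804), with 52.5 and 63.4 in the controls against 62.5 and 63.3 in the mutants; 3 libraries lay within 1 percentile point and control 1 was the low one. At Inhba the region over the start (chromosome 13, 16011663 to 16012789) had 60.1 and 62.2 in the controls against 51.7 and 63.3 in the mutants, and mutant 1 was the low one. List percentiles depend on list length, and in ranks among shared regions, given below, control 2 was the highest library at Tgfb3 and Inhba. The Tgfb2 and Inhba start regions lay inside the gene records, with midpoints 3902 and 7970 bp from the nearer gene end. Both are counted among the regions inside genes. The other Inhba regions were each in 1 mutant library, 72.5 kb away at percentile 30.3 in mutant 2 and inside the gene at 7.64 in mutant 1.

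Among the receptors, Tgfbr1 stood highest. Its start region (chromosome 4, 47352199 to 47353834) had percentiles of 98.0 and 93.9 in the controls against 97.0 and 97.0 in the mutants, and deposited fold enrichments of 10.99, 8.85, 10.1 and 9.52 in the same order. Its second region, 22.9 kb outside (47437131 to 47438509), had 57.3 and 66.6 against 69.5 and 64.7. The other RefSeq start of Tgfbr1, at 47386216, lay under no region.

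Tgfbr2 had its start region on chromosome 9 at 116174329 to 116176176, the widest of the 19 at 1848 bp, with 66.2 and 64.2 in the controls against 55.5 and 64.9 in the mutants. A shared region 43.7 kb outside (116218547 to 116219642) had 69.5 and 42.2 against 67.1 and 63.6, where control 2 stood apart. Inside Tgfbr2 there were 4 further regions besides a mutant-only one, and 0 of them were shared; 2 were in control 1 and mutant 2 together (116138464 to 116139216 at 42.9 and 44.8, and 116150683 to 116151443 at 33.6 and 25.0). Another region of that pairing lay 84.4 kb outside, at 21.7 and 15.7. These calls pair 1 control with 1 mutant and so do not follow genotype. Both libraries have the longest lists, and the part of list length was not tested.

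Tgfbr3, the betaglycan gene, had a gene-end region (chromosome 5, 107288688 to 107290136) at 80.8 and 75.6 in the controls against 82.9 and 87.5 in the mutants, with both mutants above both controls. By list percentile this was so at 29.1% of all regions held by all 4 libraries, and the reverse at 5.62%. Inside the gene the shared regions differed widely in strength. The one at 107195671 to 107196644 was steady, with 72.4 and 71.3 against 74.6 and 75.8, and that at 107167132 to 107168418 had 68.4 and 56.9 against 67.2 and 82.4. At 107247588 to 107248395 the libraries scattered, with 59.6 and 12.9 against 23.4 and 42.9. The weakest shared region of the 19 lay at 107110541 to 107111411, with 6.80 and 27.2 against 23.4 and 11.5. A further region at 107200149 to 107200684 was lacking only in control 2, at 52.5 in control 1, 41.6 in mutant 1 and 48.3 in mutant 2. Mutant 2 alone held 3 regions of percentiles 0.588, 0.0739 and 1.97, among the weakest peaks of its list.

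**Figure D2:**
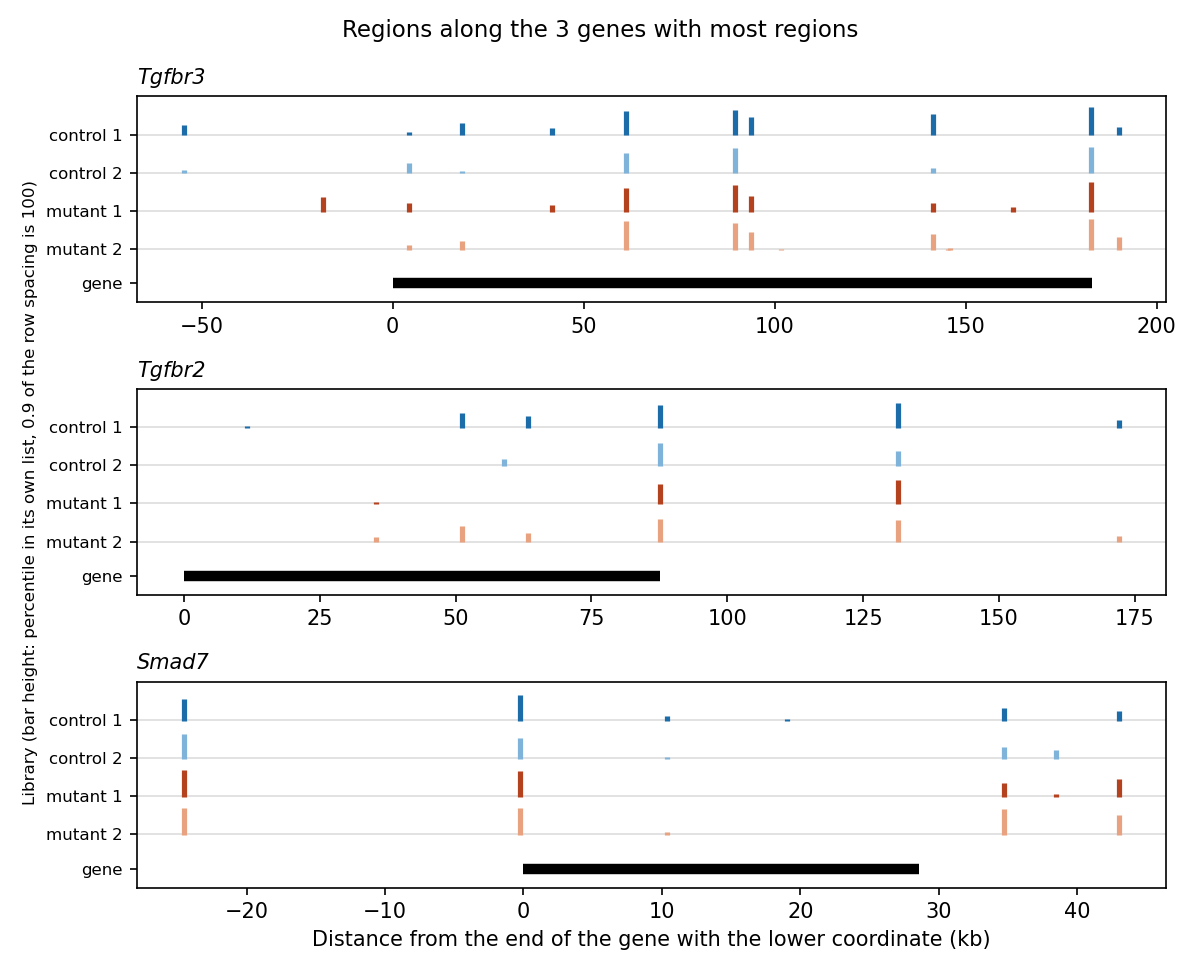
Listed peaks along Tgfbr3, Tgfbr2 and Smad7, with distance in kb from the gene end of lower coordinate on the x axis, 1 row per library, bar height for the percentile in its own list (0.9 of the row spacing is 100) and the gene as a black bar. Tall bars line up across the 4 libraries at 1 gene end and at a few other places, and short bars often appear in 1 or 2 libraries.

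Among the Smads, Smad2 came next to Tgfbr1 in strength. Its gene-end region (chromosome 18, 76240880 to 76242580) had 91.1 and 92.6 in the controls against 92.5 and 93.5 in the mutants, the narrowest range of the set. A weaker region 67.3 kb away (76378596 to 76379483) had 55.2 and 18.6 against 31.5 and 47.3. Smad3 had its gene-end region at chromosome 9, 63756801 to 63758608, with 75.7 and 55.5 in the controls against 78.5 and 79.1 in the mutants; control 2 was the low library. An inner Smad3 region was held by control 1 alone at 18.98.

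Smad7, the inhibitory Smad, had 7 regions, 3 of them shared. The gene-end region (chromosome 18, 75366336 to 75367855) had 73.7 and 57.9 in the controls against 73.4 and 76.7 in the mutants. The region 24.5 kb outside (75342079 to 75343601) had 61.9 and 70.7 against 75.8 and 76.0, and the one 6.09 kb beyond the other end (75401552 to 75402506) had 36.3 and 31.9 against 39.2 and 73.2. In the latter, mutant 2 alone was high. A region 14.4 kb outside (75409844 to 75410852) was lacking only in control 2, at 27.8 in control 1 and 50.1 and 56.8 in the mutants.

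Ordered by mean list percentile, the 9 start or gene-end regions held by all libraries ran Tgfbr1 (96.5), Smad2 (92.4), Tgfbr3 (81.7), Smad3 (72.2), Smad7 (70.4), Tgfbr2 (62.7), Tgfb3 (60.4), Inhba (59.3) and Tgfb2 (39.4). Neighbours in this order were separated in every library pair at 3 steps, from Tgfbr1 to Smad2, from Smad2 to Tgfbr3 and from Inhba to Tgfb2; at the other 5 steps their libraries overlapped. The score is a significance and is not given per base, so the order is not one of accessibility per length. Tgfb3, Inhba and Tgfb2, the 3 ligand genes among them, were the last of the 9, and the Tgfb1 start had a mean of 22.3 over the 3 libraries that held it. The median percentile of the 7 shared gene-end regions was 72.2, beside 77.5 for the 9542 shared gene-end regions genome-wide. For the 6 inside genes, which include the Tgfb2 and Inhba start regions, it was 49.3 beside 56.1, and for the 6 outside 61.1 beside 51.2.

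**Figure D3:**
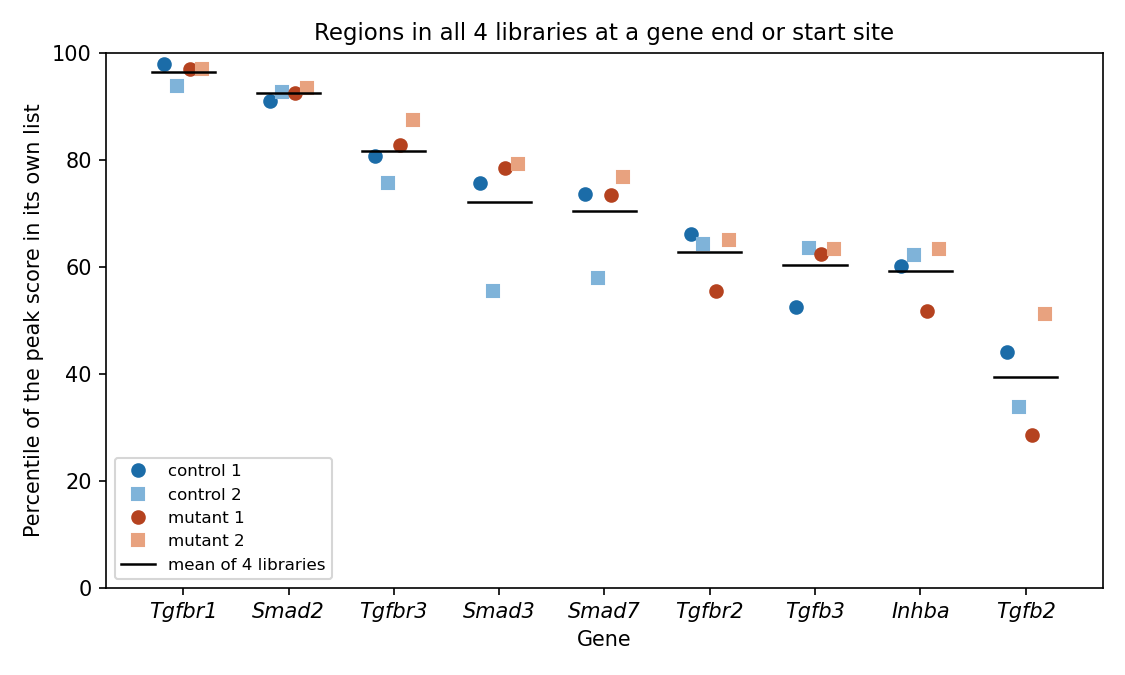
Percentile of the peak score in its own list (y axis) for the 9 genes whose start or gene end lay under a region of all 4 libraries, 1 point per library and a bar for the mean. Tgfbr1 and Smad2 lie above 90 in every library, and Tgfb2 lies lowest.

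Peaks within a shared region mostly had their summits close together. The largest distance between the summits of the 4 libraries had a median of 83 bp over the 19 regions and was at most 100 bp in 11 of them; over all shared regions the median was 99 bp and 50.7% were within 100 bp. Summits lay 108 to 160 bp before the Tgfbr1 start and thus inside the printed window. They lay 78 to 106 bp after the Tgfbr2 start, 105 to 364 bp before the Smad3 start, 536 to 566 bp after the Tgfb2 start and 256 to 579 bp after the Inhba start. The Tgfbr2, Tgfb2 and Inhba summits were downstream of the windows shown.

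To compare genotypes without the effect of list length, the 19 regions were ranked again in each library among the 18904 shared regions, which gives 4 rank lists of equal length; a difference is given in percentile points of this shared rank. Ranks of mutants were above both controls in 3 of the 19 regions, at the gene ends of Smad3, Smad7 and Tgfbr3, and below both in 1, at the start of Tgfbr2. The backgrounds were 17.6% and 18% of all shared regions, and 16.1% and 18.7% of the 9542 shared gene-end regions. All 4 of these regions were at gene ends, among 7 gene-end regions of the set. Shared ranks overlapped between genotypes in the other 15.

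At Smad3 the shared rank was 61.2 and 46.0 in the controls against 66.7 and 64.9 in the mutants, a difference of 12.2 points. It was 19.1 without control 1 and 3.95 without control 2, so its size rests on the controls. At Smad7 the ranks were 58.0 and 49.0 against 59.0 and 60.8, a difference of 6.42 that was 10.5 without control 1 and 1.63 without control 2. At Tgfbr3 they were 69.2 and 70.4 against 73.5 and 79.0, a difference of 6.42 that was 3.56 without mutant 2. At the Tgfbr2 start they were 46.1 and 56.5 against 32.5 and 41.5, a difference of −14.3 that was −8.13 without control 2 and −9.44 without mutant 1. With percentiles from the whole lists the Tgfbr2 difference was −4.94 and the genotypes overlapped, as they did at Smad7, where it was 9.27. Ranked by fold enrichment the Smad7 difference was 3.33 without overlap. In the upper 50% of each list the differences were 20.2 at Smad3, 10.82 at Smad7 and 11.2 at Tgfbr3, also without overlap. The sign was the same in these leave-one-out values of all 4 regions. Picking regions whose groups did not overlap nearly fixed that outcome, so it is no sign of robustness. The difference exceeded the gap between replicates in both genotypes at 2 of the 19 regions, Tgfbr2 and Tgfbr3, and at 23.0% of all shared regions.

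None of these differences passed the test. limma on normal scores of the shared ranks, with Benjamini-Hochberg adjustment over 18904 regions, called 0 regions higher (0%) and 0 lower (0%) in mutants, and 1241 (6.56%) had an unadjusted p under 0.05. Of the 19 regions 0 had an adjusted and 0 an unadjusted p under 0.05. The adjusted p was 0.848 at Tgfbr2 (lowest of the 19), 0.882 at Smad3, 0.924 at Tgfbr3 and 0.940 at Smad7. The differences in normal score were −0.37 (SE 0.19), 0.32 (SE 0.20), 0.20 (SE 0.17) and 0.16 (SE 0.18), with 2 libraries per genotype. For a single region 2 against 2 libraries cannot give an exact permutation p under 0.33.

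Among regions whose genotypes overlapped, the largest difference was 19.4 points at the Smad7 region 6.09 kb outside, where the ranks were 10.5 and 20.02 in the controls against 14.48 and 54.9 in the mutants; without mutant 2 it was −0.588. At the Inhba start the ranks were 36.9 and 54.1 against 27.5 and 38.9, a difference of −12.3 that was −3.56 without control 2 and −20.3 without control 1. At the inner Tgfbr3 region with scattered libraries they were 36.2 and 5.27 against 4.84 and 13.8, a difference of −11.4 that became 4.58 without control 1. At Tgfb3 they were 26.4 and 55.6 against 42.3 and 38.9, a difference of −0.391 with both mutants between the controls. At the strongest regions, the gene ends of Tgfbr1 and Smad2, the differences were 0.538 and 0.3002 points. The largest differences of the remaining genes were −6.10 at the region 12.7 kb outside Tgfb2, −6.04 at the region 67.3 kb outside Smad2 and 0.759 at the region 22.9 kb outside Tgfbr1. Without control 1 these became 2.68, 4.88 and −12.1, and without control 2 −13.0, −18.3 and 12.5.

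**Figure D4:**
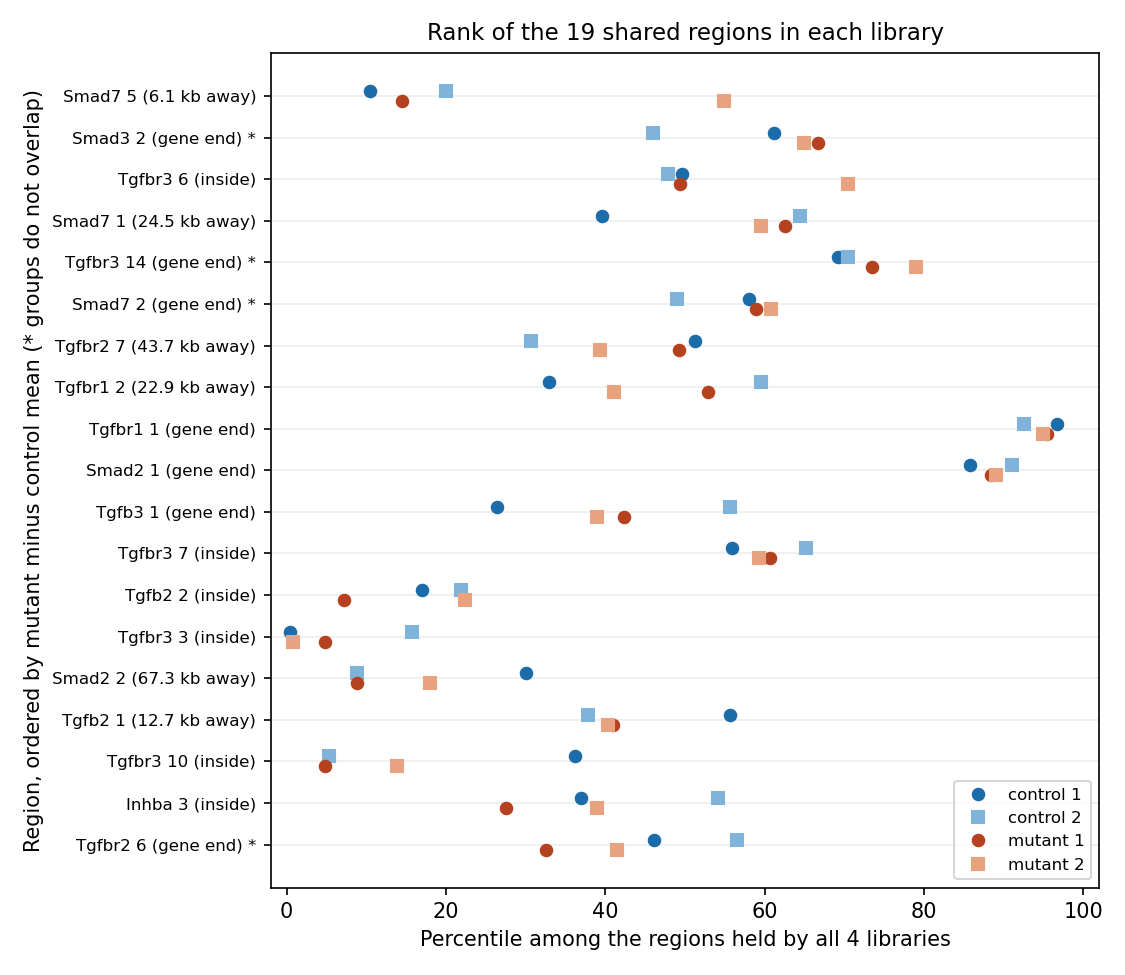
Percentile of each of the 19 regions among the regions held by all 4 libraries (x axis), with a point per library and rows ordered by mutant minus control mean. Asterisks mark the 4 regions whose genotypes do not overlap, and in many other rows the 2 control points lie farther apart than the genotypes.

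At these regions the control libraries lay far apart. The median gap between control 1 and control 2 was 15.1 points over the 19 regions, beside 6.11 over all shared regions, and that between the mutants was 5.499 beside 5.56. The median absolute difference between genotypes was 6.10 points beside 4.40, and the median signed difference 0.3002 beside −0.0225, with 10 regions positive and 9 negative. Control 1 was the lowest library in 8 of the 19 regions and the highest in 5, and control 2 the lowest in 6 and the highest in 8, so neither control was shifted one way. Mutant 1 was the lowest in 5 and the highest in 1, and mutant 2 the lowest in 0 and the highest in 5. Genome-wide each library was lowest in 23.8% to 27.4% of shared regions and highest in 23.9% to 28.0%.

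Regions called by genotype were few. A region inside Tgfbr2 (chromosome 9, 116122521 to 116123456) was held by both mutants, at percentiles 5.29 and 12.5, and by no control. A region 54.6 kb outside Tgfbr3 (chromosome 5, 107051555 to 107052284) was held by both controls, at 29.4 and 8.36, and by no mutant. That is 1 mutant-only and 1 control-only region among 44, against 4.47% and 1.07% of all regions. A missing call was not shown to be an absent peak: numbers in the deposited peak names skip where peaks were taken out. At all 56 missing calls of the 44 regions that lay between listed peaks, at least 1 number was skipped between the nearest listed peaks on either side. The same held at 99.8% of the 45845 such calls genome-wide. The highest number per list was 96508 to 119397 for 22959 to 31821 listed peaks, so such skips are the rule. Between the listed peaks around the Tgfb1 start 2 numbers were skipped in mutant 1. Around the Tgfbr2 mutant-only region 3 were skipped in control 1 and 10 in control 2. Where the skipped peaks lay is not known.

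In all, 34 peaks of control 1, 25 of control 2, 28 of mutant 1 and 33 of mutant 2 lay in the 44 regions. Per 10000 listed peaks this was 11.2 and 10.9 in the controls against 9.58 and 10.4 in the mutants, so the groups did not overlap; the means differed by −1.09 with a pooled SD of 0.433 (n = 2 per genotype). Without mutant 1 the difference was −0.698, and with equal peak numbers it was −0.871. Restricted to the upper 50% of each list, the values were 11.2 and 10.5 against 10.3 and 10.7, and there they overlapped. No test was made of this sum, since the members were chosen with earlier results of these data known. The rates rest on only 25 to 34 peaks per library, so a few peaks more or less would shift them. The pooled SD comes from 2 libraries per genotype, and counting error was not estimated. How often other gene sets of this size separate was not counted, so no genotype difference is drawn from these rates.

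Of 48 other genes of the pathway, 40 had a region in all 4 libraries, with 60 shared regions among 127 (47.2%). Ranks were higher in both mutants in 12 of the 60 and higher in both controls in 12, near the 17.6% and 18% of all shared regions; the median difference was 0.259 points, and limma called 0 (2 at an unadjusted p under 0.05; lowest adjusted p 0.644). Ltbp1, which encodes a latent TGF-beta binding protein, and Ski, a repressor of Smads, had 5 shared regions each, and Pmepa1, a target gene that dampens the pathway, had 4. Differences were largest at Tgfb1i1, which encodes the adaptor HIC-5, at Gdf11, a ligand gene, and at Fstl3, a gene of a secreted activin antagonist. At the Tgfb1i1 gene end (chromosome 7, 128246449 to 128247943) shared ranks were 10.5 and 5.81 in the controls against 20.7 and 36.3 in the mutants, a difference of 20.3 that was 13.2 without mutant 2 (limma adjusted p = 0.644). At the Gdf11 gene end (chromosome 10, 128890900 to 128892441) they were 38.9 and 54.6 against 26.5 and 29.9, a difference of −18.6 that was −10.1 without control 2 (limma adjusted p = 0.792). Ranked by fold enrichment the Gdf11 difference was −4.50 and the genotypes overlapped, and with percentiles from the whole lists it was −8.05. Inside Fstl3 (chromosome 10, 79779823 to 79781113) they were 63.0 and 65.3 against 52.9 and 42.2, a difference of −16.6 that was −10.9 without mutant 2 (limma adjusted p = 0.797). It was −6.71 with percentiles from the whole lists.

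Genotype-specific calls in these 48 genes were 4 mutant-only and 2 control-only regions of 127, beside 4.47% and 1.07% of all regions. The mutant-only ones lay inside Acvr1 and Acvr1c, both type I receptor genes, inside Dab2, an endocytic adaptor gene, and 56.5 kb from Dcn, the gene of the matrix proteoglycan decorin. Their percentiles in mutants 1 and 2 were 20.7 and 7.42 at Acvr1, 9.89 and 15.4 at Acvr1c, 28.5 and 45.1 at Dab2, and 30.6 and 20.8 at Dcn. The control-only ones lay inside Ltbp1, at 33.3 in control 1 and 12.0 in control 2, and inside Fbn1, the fibrillin gene, at 38.9 and 12.0. Acvr1 had no region in all 4 libraries.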

How the data were processed

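Each library had 1 deposited peak list in narrowPeak layout, with coordinates in mm10 (build named in the submitters' processing notes); aligner, caller and filters: not given in the sources used here. Per peak, the authors deposited a score, a fold enrichment (ratio) over a background that is not stated, and the −log10 p-value and q-value. In nearly all rows the score equals 10 times −log10 of the p-value without its decimals. Peaks off chromosome Y (14, 7, 8 and 11 peaks were on it) were merged at 1 shared bp and assigned to the nearest of 21631 protein-coding RefSeq genes (GRCm38.p6) within 100 kb; where a library had several peaks in a region, the highest score was used. A gene-end region has its midpoint within 1 kb of either end. Ranks among shared regions were turned into normal scores and fitted with limma 3.58.1 in R 4.3.3, with Benjamini-Hochberg adjustment and a threshold of 0.05. A check on simulated data required only that called shifts had the right direction. The share of shifts it recovered is not given here, so 0 calls do not show that ranks are equal. Other steps used Python 3.11.15.

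The 10 genes, the 48 other pathway genes, the markers and the motifs were chosen with earlier results of these data known. Named were the strongest region, the gene-end region and the region of largest difference of each gene, all genotype-specific regions, and of the 48 genes the 3 with most shared regions, the 3 with the largest differences and those with genotype-specific regions; further regions were chosen after their values were seen. Alternatives were ranking by fold enrichment or in whole lists, mean peaks, equal peak numbers, the upper 50%, 200 bp overlap, 50 kb or 20 kb, edge assignment, leaving out each library and the replicate number as a block.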

Additional observations from a re-analysis of the deposited data

How the results depend on the processing

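The settings are the alternatives listed above. The 19 shared regions were 12 in the upper 50% of each list, 15 to 18 under the closer distances and with equal peak numbers, and 19 to 22 with a library left out. Regions ranked higher in both mutants were 5 and in both controls 0 with percentiles from the whole lists, where the backgrounds were 29.1% and 5.62%, a shift seen over all shared regions. With 1 library left out, fewer libraries must differ, and the counts ran from 3 to 11 for mutants (background 32.8% to 35.0%) and from 2 to 8 for controls (background 33.1% to 35.8%). Peaks per 10000 differed by −0.374 in the upper 50% of each list and −0.638 within 20 kb, against −1.09, and from −1.49 to −0.698 with a library left out. limma called 0 regions under each of these settings, with 613 to 1810 at an unadjusted p under 0.05. Same-numbered libraries shared only a number: the correlation of their deviations over shared regions was 0.0185. With the replicate block limma called 0 regions (1348 at an unadjusted p under 0.05), and differences of 1 sign within both numbers were 4 for mutants and 2 for controls at the 10 genes, where 25.9% and 26.4% of all shared regions were. The Smad3 and Tgfbr3 gene-end regions did not overlap between genotypes in 10 of 10 alternatives. Those of Smad7 and Tgfbr2 did not in 9 of 10, the exception being percentiles from the whole lists. Leaving out a library could hardly make separate groups overlap. Mean peaks and the 200 bp overlap nearly repeated the main ranks, as each library had 1 peak in these regions. The counts therefore overstate the number of separate checks. Read depth is unknown and limits every call.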
